A study of Mus musculus with 6 samples.

Results

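The distal colon epithelium of the mouse was compared with the proximal colon epithelium, by RNA sequencing of colon epithelial cells. All mice were wild-type C57BL/6J and untreated. The comparison used the 2 libraries labelled distal colon and the 2 labelled proximal colon, 4 of the 6 libraries in all. Each region had 1 male library (replicate 1) and 1 female library (replicate 2), and the other 2 libraries came from the middle colon. The labels give no age, do not say how many mice stand behind a library, and leave unsaid whether 1 set of mice gave all regions of a sex. The p-values therefore measure the spread that remains among the 6 libraries once a difference between the sexes shared by all regions is removed. Each library carries sex and mouse together. In what follows a pair of values for a region is always given as male library then female library, in FPKM, the number of sequenced fragments scaled for the length of the transcript and the depth of the library.

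The colon epithelium is a single layer of cells folded into crypts, made of absorptive colonocytes, mucus-secreting goblet cells, hormone-secreting enteroendocrine cells and chemosensory tuft cells. It takes up water, salts and the short-chain fatty acids that bacteria make from fibre, metabolises foreign compounds, and keeps the microbiota behind a mucus barrier. The proximal colon receives liquid contents from the caecum and the distal colon holds formed stool. The epithelium along this axis derives from midgut and hindgut endoderm.

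Epithelial genes were abundant in all 4 libraries. The cell adhesion molecule Epcam stood at 743 and 869 FPKM in the proximal and 872 and 825 FPKM in the distal libraries, and the keratin Krt8 at 3335 and 3932 FPKM proximally and 3829 and 4008 FPKM distally. The squamous and glial genes Krt5, Trp63 and Sox10 were listed at 0 in all 4. Of the marker lists of other cells, T cell and intraepithelial lymphocyte genes summed to 151 and 66.8 FPKM in the proximal and 19.2 and 28.1 FPKM in the distal libraries, and 5 of 17 tested were lower distally. Fibroblast and smooth muscle genes summed to 68.7 and 76.1 FPKM proximally and 176 and 168 FPKM distally, with 1 of 6 tested higher (Gsn, 1.95) and 2 lower. Without Gsn the sums were 35.6 and 31.9 FPKM proximally and 22.4 and 20.3 FPKM distally. Genes of endothelium, blood and glia summed to 142 and 44.7 FPKM proximally and 137 and 41.4 FPKM distally, with none called of 4. The part of such cells in the differences was not tested. From the steps in which low values fall, the libraries held an estimated 7840000 to 9950000 fragments assigned to genes. The labels' regions were matched by the HOX genes that mark the hindgut, with Hoxb13 at 0.562 and 36.2 FPKM in the proximal and 457 and 527 FPKM in the distal libraries. In bulk libraries such as these, fewer cells of a type and less RNA per cell cannot be told apart.

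Of the 11815 genes with at least 1 FPKM in 2 or more of the 6 libraries, 1668 (14.1%) differed between the distal and the proximal colon at an adjusted p under 0.05, by limma's moderated test on log2(FPKM + 1) with sex as a block and Benjamini-Hochberg adjustment. Of these, 765 genes (6.47% of those tested) were higher in the distal colon and 903 (7.64%) were lower; these 2 shares are the background against which each group of genes is read below. The median log2 difference over all tested genes was 0.01, so the comparison was centred near 0. All log2 differences given are distal minus proximal on the log2(FPKM + 1) scale, which understates the change of genes with low levels. Among called genes, 395 rose and 499 fell by a log2 difference of 1 or more. Both distal libraries lay above both proximal ones for 30.8% of all tested genes and below both for 29.5%. Only 4 of the 1668 called genes had overlapping regions, so a lack of overlap says little beyond the call. Of the 6 libraries left out in turn, the male distal one cost the most calls: without it 130 genes were higher and 210 lower, and without the female distal library 362 were higher and 408 lower.

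**Figure D1:**
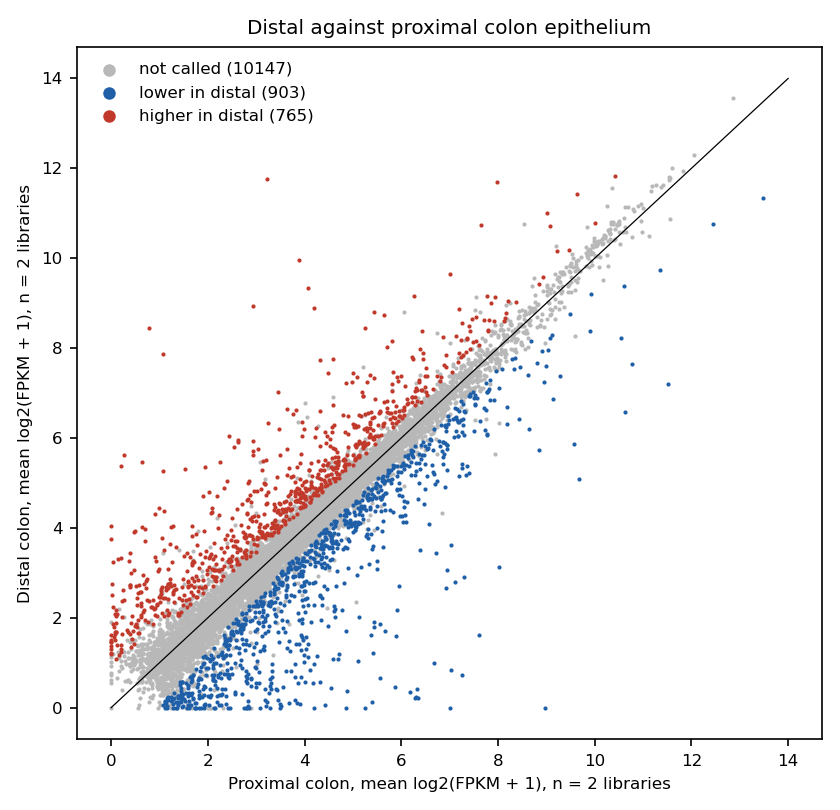
Mean log2(FPKM + 1) of the 2 proximal libraries (horizontal axis) against the 2 distal libraries (vertical axis) for the 11815 tested genes. The 765 genes higher and the 903 genes lower in the distal colon at an adjusted p under 0.05 are coloured, and the grey points near the diagonal are the genes that did not pass.

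The called genes included abundant ones. The genes lower in the distal colon summed to 15.5% and 11.1% of all FPKM in the proximal libraries, 8.66% and 5.52% in the middle and 4.67% and 4.06% in the distal libraries. The genes higher in the distal colon summed to 4.09% and 5.35%, 7.87% and 11.1% and 11.1% and 12.1% in the same order. These sums were taken over genes chosen for their difference and describe its size only. The middle colon, which did not define the contrast, lay between the proximal and distal means for 720 of the 765 higher genes and for 848 of the 903 lower genes. On a scale from 0 at the proximal to 1 at the distal mean, its median position was 0.627 for the higher and 0.570 for the lower genes. Among the 765 genes higher distally, the female library lay above the male one for 629 in the proximal, 672 in the middle and 490 in the distal colon. Among the 903 genes lower distally, the female library lay below the male one for 713, 778 and 631 in the same order. Sex, mouse and dissection cannot be told apart in these counts, since each region has 1 library per sex.

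**Figure D2:**
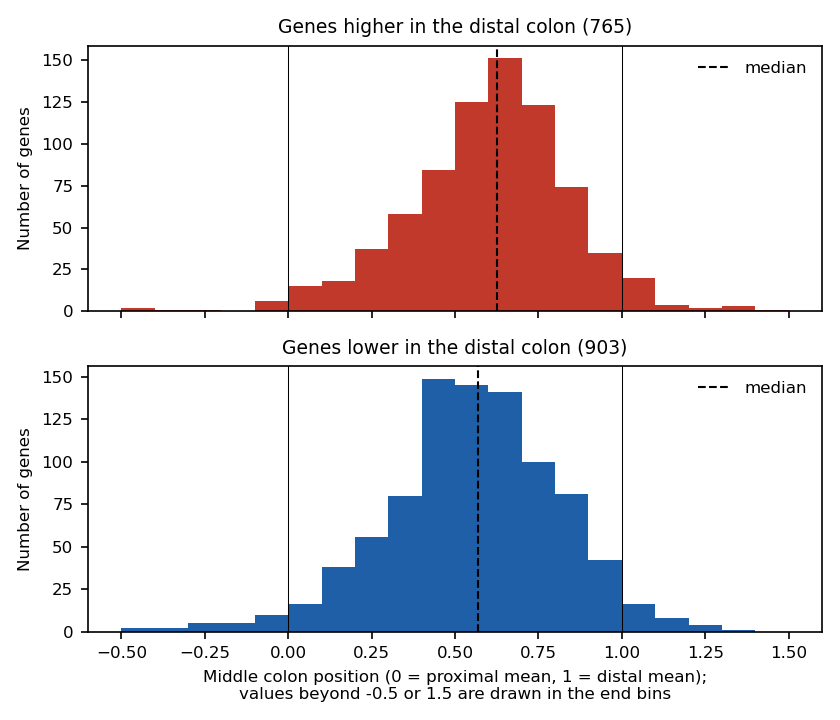
Position of the middle colon mean between the proximal mean (0) and the distal mean (1) on the log2(FPKM + 1) scale, as a histogram of gene counts for the genes higher (top) and lower (bottom) in the distal colon. Both distributions peak between the 2 ends, with medians of 0.627 and 0.570.

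A short sequence was found close to the start of 9 lowered and 2 raised genes. The 9-base word CAAAGTCCA, a form of the site recognised by the intestinal nuclear receptors HNF4A and HNF4G, was searched on both strands in RefSeq promoters of build GRCm38.p6 for the 7214 tested genes with a single promoter in the table. In the 150 bases before the start it was present for 9 of 526 lowered genes (1.71%), for 2 of 432 raised genes (0.463%) and for 22 of all 7214 (0.305%). The windows shown are those of 6 lowered genes, namely an alkaline phosphatase, an amino acid transporter subunit, a non-classical MHC molecule, a butyrophilin-like protein and 2 neighbouring cytochrome P450 genes, and those of both raised genes with the word, the cytochrome P450 gene Cyp2c68 and the calcium channel Trpv6. Each is the 150 bases before the annotated start, 5′ to 3′ on the gene's strand, with the word in capitals.
Alpi: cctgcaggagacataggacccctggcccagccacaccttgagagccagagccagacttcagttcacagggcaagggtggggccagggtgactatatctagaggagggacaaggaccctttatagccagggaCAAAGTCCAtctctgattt
Slc3a1: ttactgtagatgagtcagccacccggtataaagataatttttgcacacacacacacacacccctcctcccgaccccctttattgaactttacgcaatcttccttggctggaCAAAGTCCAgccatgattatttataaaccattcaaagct
H2-T3: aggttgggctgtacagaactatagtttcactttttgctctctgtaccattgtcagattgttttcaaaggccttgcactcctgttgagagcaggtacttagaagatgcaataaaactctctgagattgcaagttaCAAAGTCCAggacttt
Btnl2: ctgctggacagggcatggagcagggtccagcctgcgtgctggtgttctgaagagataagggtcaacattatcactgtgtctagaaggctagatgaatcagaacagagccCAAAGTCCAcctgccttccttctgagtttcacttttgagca
Cyp2c65: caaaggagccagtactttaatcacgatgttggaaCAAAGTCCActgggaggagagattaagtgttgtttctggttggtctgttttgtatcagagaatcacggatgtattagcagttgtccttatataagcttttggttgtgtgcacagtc
Cyp2c66: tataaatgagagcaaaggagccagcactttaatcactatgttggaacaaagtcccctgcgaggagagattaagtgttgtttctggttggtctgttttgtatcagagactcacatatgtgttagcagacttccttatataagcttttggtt
Cyp2c68: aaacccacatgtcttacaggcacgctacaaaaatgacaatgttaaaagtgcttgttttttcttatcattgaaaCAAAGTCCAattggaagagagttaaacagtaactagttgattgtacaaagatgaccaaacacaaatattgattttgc
Trpv6: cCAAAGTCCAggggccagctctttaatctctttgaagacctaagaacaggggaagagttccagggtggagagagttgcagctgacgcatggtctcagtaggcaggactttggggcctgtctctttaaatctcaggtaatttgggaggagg
Alpi lies on the minus strand of chr1:87101607-87101756 and its word begins 19 bases before the start; in Slc3a1 (chr17:85028197-85028346, plus strand) the distance is 39 bases, in H2-T3 (chr17:36190152-36190301, minus strand) 16 bases, in Btnl2 (chr17:34354672-34354821, plus strand) 41 bases and in Cyp2c65 (chr19:39060856-39061005, plus strand) 116 bases. The Cyp2c66 window (chr19:39113748-39113897, plus strand) holds no copy of the word, although it aligns to that of Cyp2c65 with 78.4% identical bases. Of the raised genes, Cyp2c68 (chr19:39741102-39741251, minus strand) has the word 77 bases and Trpv6 (chr6:41636406-41636555, minus strand) 149 bases before the start. Alpi fell from 24.03 and 26.1 to 1.55 and 1.04 FPKM (log2 difference -3.52, SE 0.48, adjusted p = 0.011) and H2-T3 from 75.7 and 43.7 to 0.450 and 0.306 FPKM (log2 difference -5.41, SE 0.24, adjusted p = 0.0011), while Cyp2c68 rose from 4.78 and 19.5 to 126 and 133 FPKM (log2 difference 3.58, SE 0.38, adjusted p = 0.006). The word was singled out after the shares of 8 words had been seen. Searched as well were TTTATG for the CDX factors, TCGTAAA for HOX13 factors and AGATAA for GATA factors. Words in several pieces were the repeat of AGGTCA with 1 base between its copies for nuclear receptors, and a short form of the glucocorticoid receptor site, which is ACA, then any 3 bases, then TGT. Of general promoter elements TATAAA was searched, and GGGCGG as the GC box. TTTATG was within the 250 bases before to 50 after the start in 10.5% of lowered, 8.33% of raised and 6.72% of all these promoters, TATAAA in 11.8%, 9.26% and 7.39%, and CAAAGTCCA in 1.90%, 0.694% and 0.499% of this longer window. A match describes the letters and not binding of a factor. Of the 5 called genes given with values so far, 3 were called without the male distal library, 5 without the female distal library and 5 without any 1 of the other libraries.

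Among regulators and signals, related genes often moved in opposite directions. Bone morphogenetic proteins are secreted signals that favour differentiation at the crypt top. Bmp2 stood at 3.19 and 5.52 FPKM in the proximal and 32.2 and 31.5 FPKM in the distal libraries (log2 difference 2.65, SE 0.18, adjusted p = 0.0023), whereas Bmp3 stood at 31.6 and 26.2 FPKM proximally and 8.34 and 6.95 FPKM distally (log2 difference -1.79, SE 0.10, adjusted p = 0.0018). The 2 regions did not overlap for either ligand. The same split held for the inhibitors of differentiation that BMP signals induce, with Id1 higher (log2 difference 0.83) and Id3 lower (-0.99), and for the ETS factors Etv4 (1.29) and Etv5 (-1.83). Of 31 tested genes of the BMP, TGF-beta and activin pathways, 4 were higher and 4 lower.

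Among 24 Wnt ligands, receptors and inhibitors, 3 rose and none fell, with a list median of 0.04. The raised genes were the R-spondin receptor Lgr4 (log2 difference 0.77), the repressor Tcf7l1, which acts at Wnt target genes (2.50), and the receptor Ror1 (1.08). Tcf7l1 went from 4.73 and 2.67 FPKM to 29.3 and 21.3 FPKM without overlap. At an unadjusted p under 0.05 the same list held 6 higher and 2 lower members by limma. Guidance molecules that sort cells along the crypt split 5 higher and 5 lower of 37: Sema4g (1.17) and the ephrin Efna1 (0.74) rose, and the ephrin receptors Epha2 (-1.79) and Epha1 (-0.76) fell.

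Of 32 tested nuclear receptors 5 rose and 6 fell. Ppara, which drives fatty acid oxidation genes, stood at 26.5 and 14.4 FPKM in the proximal and 3.36 and 4.49 FPKM in the distal libraries (log2 difference -2.07, SE 0.27, adjusted p = 0.0098), and Pparg, a receptor for fatty acids, at 91.4 and 74.2 FPKM proximally and 33.99 and 43.6 FPKM distally (log2 difference -1.08, SE 0.19, adjusted p = 0.022). Both distal values lay below both proximal values for each. The third receptor of that family, Ppard, stood at 77.1 and 74.6 FPKM proximally and 91.6 and 77.9 FPKM distally and was not called (log2 difference 0.15, SE 0.10, adjusted p = 0.38). The bile acid receptor Nr1h4 (-1.23), the shared partner Rxra (-0.50), the glucocorticoid receptor Nr3c1 (-0.91) and the retinoic acid receptor Rarg (-1.01) also fell. The raised receptors included Nr4a1 (1.34), Nr1d1 (0.54), the xenobiotic receptor Nr1i3 (1.57) and Esrrg (2.095). In the forkhead family Foxq1 went from 2.45 and 4.17 to 22.3 and 17.1 FPKM (log2 difference 2.28, SE 0.24, adjusted p = 0.0056), and Foxp1 (0.91) and Foxp2 (1.40) rose with it. Of the zinc finger genes named Zfp, which are mostly little studied DNA-binding proteins, 9 of 278 were higher and 7 lower. Of the 26 called regulators and signals given with values, 7 kept an adjusted p under 0.05 without the male distal library, 14 without the female distal library, and 23 to 24 without any 1 of the other libraries; the lists counted held 26 higher and 22 lower genes in all, 5 and 4 without the male distal library and 14 and 8 without the female one.

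Solute carriers changed in both directions. Of 201 tested members of the Slc family, 32 rose and 47 fell distally, with a median of -0.11. Without the male distal library 6 of these were higher and 9 lower, and without the female distal library 12 of these were higher and 20 lower. Carriers of amino acids and peptides had 7 higher and 3 lower of 25, with a median of -0.06; without the male distal library 2 higher and 3 lower and without the female distal library 3 higher and 3 lower were called. The peptide carrier Slc15a1 (PEPT1) stood at 1.07 and 17.3 FPKM in the proximal, 24.7 and 44.8 FPKM in the middle and 55.2 and 67.96 FPKM in the distal libraries (log2 difference 3.34, SE 0.65, adjusted p = 0.028). The 2 proximal libraries were far apart, and both lay below the middle and distal ones. The proton-coupled amino acid carrier Slc36a1 went from 10.5 and 9.61 to 72.4 and 73.4 FPKM (log2 difference 2.74, SE 0.31, adjusted p = 0.0065), and the creatine carrier Slc6a8 (1.58), the glutamate carrier Slc1a1 (1.80) and the proline carrier Slc6a20a (1.87) also rose. The subunit for cystine and dibasic amino acids, Slc3a1, moved the other way, from 28.4 and 38.7 to 1.45 and 0.718 FPKM (log2 difference -4.06, SE 0.42, adjusted p = 0.0055), with the neutral amino acid carrier Slc1a4 (-2.39) and the taurine carrier Slc6a6 (-1.38).

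Carriers of sugars, vitamins and organic anions also changed in both directions, with 8 higher and 9 lower of 31. Both butyrate carriers named here were higher in the distal colon: sodium-coupled Slc5a8 went from 25.8 and 46.8 to 89.2 and 88.8 FPKM (log2 difference 1.33, SE 0.20, adjusted p = 0.014), and proton-coupled Slc16a1 (MCT1) had a log2 difference of 0.58. Of vitamin carriers, that of folate, Slc46a1 (2.37), and that of biotin and pantothenate, Slc5a6 (1.06), rose. The riboflavin carriers split, with Slc52a2 lower (-0.77) and Slc52a3 called higher. The carnitine carrier Slc22a5 (-0.79) and its relative Slc22a4 (-1.50) fell. The sulfate carriers moved in opposite directions: Slc13a1 went from 21.4 and 23.5 FPKM to 0.277 and 0.439 FPKM (log2 difference -4.11, SE 0.13, adjusted p = 6.9e-04), whereas Slc26a2 rose from 182 and 159 to 386 and 282 FPKM (log2 difference 0.95, SE 0.15, adjusted p = 0.016). Neither sulfate carrier overlapped between the regions. Slc26a3, the chloride-bicarbonate exchanger of the surface cell, stood at 335 and 553 FPKM proximally and 703 and 798 FPKM distally and missed the threshold (log2 difference 0.80, SE 0.19, adjusted p = 0.052).

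Of 13 genes for calcium, magnesium and phosphate 3 were higher and 2 lower. Trpv6, the apical calcium channel of vitamin D-regulated uptake, stood at 0 and 0.410 FPKM in the proximal and 4.34 and 5.98 FPKM in the distal libraries (log2 difference 2.36, SE 0.24, adjusted p = 0.0053), and the magnesium channel Trpm6 at 24.8 and 15.8 FPKM proximally and 47.9 and 35.4 FPKM distally (log2 difference 1.02, SE 0.13, adjusted p = 0.0081). Both distal libraries lay above both proximal ones for each channel. The calcium pump Atp2b1 (-0.49) and the sodium-calcium exchanger Slc8a1 (-1.55), which move calcium out of the cell, fell, and so did the calcium-activated cation channels Trpm4 (-1.02) and Trpm5 (-1.09). Of 20 genes for chloride and bicarbonate, 4 were higher and 7 lower: the calcium-activated channel Ano1 went from 6.36 and 20.03 to 87.7 and 111 FPKM (log2 difference 3.0004, SE 0.28, adjusted p = 0.0042), and its relatives Ano7 (-1.08), Ano9 (-0.89) and Ano10 (-0.50) fell together with Cftr (-0.63) and the basolateral loaders Slc12a2 (-0.60) and Slc4a2 (-1.23). All 3 called potassium channels were lower (Kcnk1, -0.50; Kcnk6, -0.97; Kcnh3, -3.61), of 9 tested. Of 4 tested aquaporins 1 fell and none rose: the water channel Aqp1 went from 111 and 94.2 to 34.03 and 27.6 FPKM (log2 difference -1.71, SE 0.09, adjusted p = 0.0017), and Aqp8, the main apical water channel of colonocytes, stood at 113 and 309 FPKM proximally and 631 and 502 FPKM distally and missed the threshold (log2 difference 1.59, SE 0.43, adjusted p = 0.072). Aqp4, the basolateral water channel, stood at 10.2 and 77.6 FPKM in the proximal, 213 and 153 FPKM in the middle and 73.9 and 36.4 FPKM in the distal libraries; the distal level was above the proximal one in the male and below it in the female libraries, and the gene was not called (log2 difference 0.84, SE 0.89, adjusted p = 0.59). Metal handling had 3 higher and 5 lower of 23: the iron exporter Slc40a1 (ferroportin) rose (0.98), and the zinc importer Slc39a4 (-0.61) and the metal-binding metallothionein Mt2 (-1.15) fell. Of the 37 called carriers and channels given with values, 12 remained called without the male distal library, 21 without the female distal library and 29 to 33 without any 1 of the others; the lists counted held 39 higher and 59 lower genes in all, 8 and 13 without the male distal library and 17 and 26 without the female one.

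**Figure D3:**
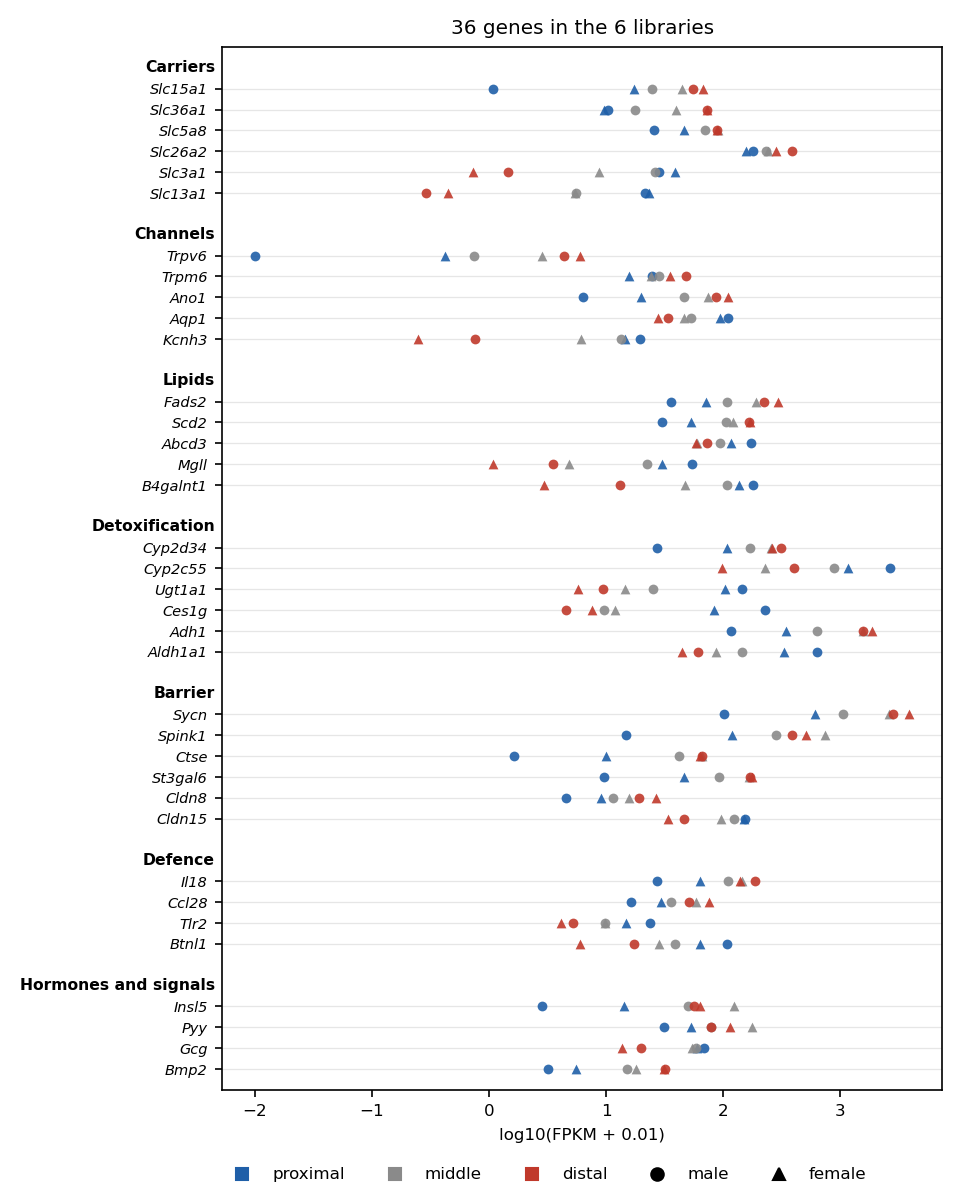
FPKM on a log10(FPKM + 0.01) axis in each of the 6 libraries for 36 genes named in the text, grouped by function. Each row is a gene, colours mark the region, and circles and triangles mark the male and female library. The middle libraries mostly lie between the other 2 regions, and in genes that rise distally the female proximal library often lies above the male one.

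Called genes of fatty acid oxidation were mostly lower. Of 46 tested genes of fatty acid oxidation and ketogenesis, 16 were lower in the distal colon and 1 was higher, with a median of -0.40 against 0.01 over all genes. Without the male distal library 0 of these were higher and 4 lower, and without the female distal library 1 of these was higher and 11 lower. Abcd3, which carries fatty acids into the peroxisome, stood at 175 and 117 FPKM in the proximal, 94.9 and 60.2 FPKM in the middle and 72.99 and 58.6 FPKM in the distal libraries (log2 difference -1.12, SE 0.12, adjusted p = 0.0059). The mitochondrial acyl-CoA dehydrogenases Acads (-0.76) and Acadvl (-0.47) fell too. The raised gene was the coactivator Ppargc1a (0.93), which promotes mitochondrial genes.

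Of 38 genes of fat synthesis and storage 13 were lower and 3 higher, with a median of -0.26. The monoglyceride lipase Mgll went from 54.7 and 30.2 to 3.50 and 1.07 FPKM (log2 difference -3.77, SE 0.28, adjusted p = 0.0026), and the triglyceride-forming Dgat2 (-0.94) and Lpin2 (-2.43), the lipid droplet protein Cidec (-2.65) and the elongase Elovl6 (-1.21) fell. The raised members were the elongase Elovl7 (0.80) and the desaturases Fads2 and Scd2. Fads2, the first step towards polyunsaturated fatty acids, rose from 36.2 and 71.7 to 225 and 297 FPKM (log2 difference 2.32, SE 0.16, adjusted p = 0.0023) and Scd2 from 30.3 and 52.8 to 166 and 171 FPKM (log2 difference 2.04, SE 0.19, adjusted p = 0.0042). Both desaturases were higher in every distal than in every proximal library. Acly, which makes cytosolic acetyl-CoA, rose from 52.6 and 58.2 to 131 and 164 FPKM (log2 difference 1.39, SE 0.12, adjusted p = 0.0036), while malic enzyme Me1, a source of NADPH, fell from 15.3 and 6.70 to 0.0416 and 0.0659 FPKM (log2 difference -3.41, SE 0.32, adjusted p = 0.0042).

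Of 42 sphingolipid genes 7 rose and 8 fell. In ganglioside synthesis, the GM3 synthase St3gal5 was at 22.96 and 2.96 FPKM proximally and listed at 0 in the distal pair (adjusted p = 0.031), and B4galnt1, which acts on its product, went from 181 and 136 to 13.2 and 2.96 FPKM (log2 difference -4.40, SE 0.32, adjusted p = 0.0025). A4galt, which makes globoside Gb3 from the same lactosylceramide, rose from 0.264 and 1.77 to 10.2 and 8.26 FPKM (log2 difference 2.44, SE 0.33, adjusted p = 0.011). The ceramide synthases Cers4 (0.81) and Cers5 (1.01) rose and Cers6 (-0.54) fell. Phospholipases A2, which release fatty acids from membrane lipids, were 4 higher and 1 lower of 15 tested: Pla2g5 went from 1.76 and 3.97 to 29.6 and 21.5 FPKM (log2 difference 2.82, SE 0.31, adjusted p = 0.0061), and Pla2g2f (2.80), Pla2g4f (3.41) and Pla2g10 (0.999) also rose. Of 24 called lipid genes given with values, 11 were still called without the male distal library, 18 without the female distal library and 22 to 23 without any 1 of the others; the lists counted held 15 higher and 38 lower genes in all, 5 and 12 without the male distal library and 12 and 22 without the female one.

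No gene of the respiratory chain passed the threshold. None of 36 complex I genes and none of 36 genes of complexes III to V was called by limma, with medians of 0.00 and -0.02. At an unadjusted p under 0.05 the counts were 3 and 1, and no other tool was run. Around the citric acid cycle 6 genes rose and 3 fell of 36. Citrate synthase Cs (0.61), pyruvate carboxylase Pcx (2.0001) and the phosphatases that activate pyruvate dehydrogenase, Pdp1 (1.82) and Pdp2 (1.52), rose. Of the kinases that inactivate pyruvate dehydrogenase, Pdk1 was called higher and Pdk4 lower. Pcx stood at 14.1 and 22.2 FPKM in the proximal and 70.3 and 77.7 FPKM in the distal libraries. In glycolysis and glucose synthesis 4 of 28 were higher and 4 lower. The hexokinase-like Hkdc1 fell from 67.8 and 31.6 to 0.659 and 0.522 FPKM (log2 difference -4.90, SE 0.32, adjusted p = 0.0023) and Ldhb fell (-3.13), while the enolase Eno3 rose from 12.5 and 28.3 to 177 and 255 FPKM (log2 difference 3.43, SE 0.20, adjusted p = 0.0018) and Pck1 rose (0.88).

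Called genes of nitrogen metabolism were mostly lower distally. Of 30 genes for polyamines, urea and nitrogen 8 fell and 1, the urea cycle enzyme Asl, rose, with a median of -0.09. The whole list summed to 1404 and 1516 FPKM proximally and 1551 and 1706 FPKM distally. Without its most abundant member, Sat1, the sums were 1123 and 1214 FPKM proximally and 1164 and 1293 FPKM distally. The sums were not tested. The arginase Arg2 went from 36.5 and 12.2 to 2.51 and 2.57 FPKM (log2 difference -2.65, SE 0.41, adjusted p = 0.014), the urea cycle enzyme Otc from 19.1 and 19.1 to 4.99 and 4.15 FPKM (log2 difference -1.86, SE 0.19, adjusted p = 0.005), and Nags, which makes the activator of that cycle, from 15.8 and 7.95 to 0.664 and 0.842 FPKM (log2 difference -2.81, SE 0.27, adjusted p = 0.0046). All 3 were lower in both distal libraries than in either proximal one. Proline dehydrogenase Prodh (-1.92), the alanine transaminase Gpt (-1.70) and the polyamine enzyme Amd1 (-3.83) fell too. Amd1 has near-identical copies in the mouse genome, and its value is uncertain for that reason. For energy and nitrogen genes, 14 called ones were given with values, of which 9 kept their call without the male distal library, 12 without the female distal library and 13 to 14 without any 1 of the others; the lists counted held 11 higher and 15 lower genes in all, 4 and 8 without the male distal library and 6 and 10 without the female one.

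Enzymes that conjugate and clear drugs and toxins were lowered more often than raised. Of 70 tested genes 25 fell and 12 rose, with a median of -0.45. Without the male distal library 6 of these were higher and 11 lower, and without the female distal library 10 of these were higher and 15 lower. Called members of the conjugating and ester-cleaving families were mostly lower: 4 of 7 glucuronosyltransferases, 4 of 5 sulfotransferases and 6 of 10 carboxylesterases fell, and the one raised member among them was Ces2g (1.54). Without the male distal library 4, 1 and 3 members of these families were lower, and without the female distal library 4, 1 and 4. Ugt1a1, which glucuronidates bilirubin, stood at 146 and 104 FPKM in the proximal and 9.34 and 5.78 FPKM in the distal libraries (log2 difference -3.89, SE 0.11, adjusted p = 4.0e-04). The esterase Ces1g went from 227 and 83.5 to 4.51 and 7.62 FPKM (log2 difference -4.33, SE 0.48, adjusted p = 0.0065) and the sulfotransferase Sult1d1 had a log2 difference of -1.71. The groups did not overlap for Ugt1a1 or Ces1g. Genes of the Ugt1a locus share exons and those of the Ces clusters are near copies, so the split of reads between them is uncertain.

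Cytochrome P450 enzymes, which oxidise foreign compounds and endogenous lipids, changed in both directions, also within subfamilies. On chromosome 19 the neighbours Cyp2c55, Cyp2c65 and Cyp2c66 (39007019 to 39187072, mm10) were all lower. Cyp2c55 went from 2645 and 1169 to 403 and 97.6 FPKM (log2 difference -3.14, SE 0.24, adjusted p = 0.0027), Cyp2c65 from 354 and 188 to 9.35 and 6.37 FPKM (log2 difference -4.89, SE 0.34, adjusted p = 0.0023), and Cyp2c66 from 11.5 and 3.13 FPKM to 0 in both distal libraries (adjusted p = 0.013). On chromosome 15 the 4 neighbours Cyp2d10, Cyp2d9, Cyp2d12 and Cyp2d34 (82402846 to 82620946) were all higher, with log2 differences of 2.11, 2.55, 3.78 and 2.36. Cyp2d34 stood at 27.3 and 109 FPKM in the proximal and 313 and 262 FPKM in the distal libraries. Of the same subfamilies, Cyp2c68 rose (3.58) and Cyp2d26 went down, from 71.2 and 43.7 to 17.2 and 21.9 FPKM (log2 difference -1.48, SE 0.29, adjusted p = 0.028). Over the whole family 8 rose and 8 fell of 31. Members of a subfamily are close copies, so reads may have been split among them.

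Retinoid and steroid enzymes changed in both directions as well. Retinol is oxidised to retinal and then to retinoic acid, the ligand that shapes the intestinal immune system. Adh1, an alcohol dehydrogenase that oxidises retinol, rose from 117 and 345 to 1563 and 1862 FPKM (log2 difference 3.08, SE 0.32, adjusted p = 0.0056), and the retinol dehydrogenases Rdh16 (2.70) and Rdh9 (1.32) rose with it, while Rdh1 fell (-1.46). Of the dehydrogenases of the next step, Aldh1a1 fell from 636 and 335 to 60.9 and 44.4 FPKM (log2 difference -3.12, SE 0.14, adjusted p = 0.0011) and Aldh1a3 rose from 0.0781 and 0.105 to 1.11 and 2.27 FPKM (1.27). The regions did not overlap for Adh1 or Aldh1a1. The hydroxysteroid dehydrogenases Hsd3b3 (-1.89) and Hsd3b2 (-1.85), which act in steroid synthesis, fell, and the steroid reductase Srd5a2 rose (2.41). In all 8 of 46 genes of this list rose and 14 fell. Among 41 antioxidant genes 8 fell, including the regulator Nfe2l2 (-0.75) and its target Nqo1 (-1.74), and 2 rose, of which Prdx6 went from 547 and 486 to 1843 and 2266 FPKM (log2 difference 1.99, SE 0.23, adjusted p = 0.0075). For the 25 called enzymes of these kinds given with values, 16 calls held without the male distal library, 21 without the female distal library and 21 to 25 without any 1 of the others; the lists counted held 24 higher and 48 lower genes in all, 10 and 19 without the male distal library and 18 and 27 without the female one.

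**Figure D4:**
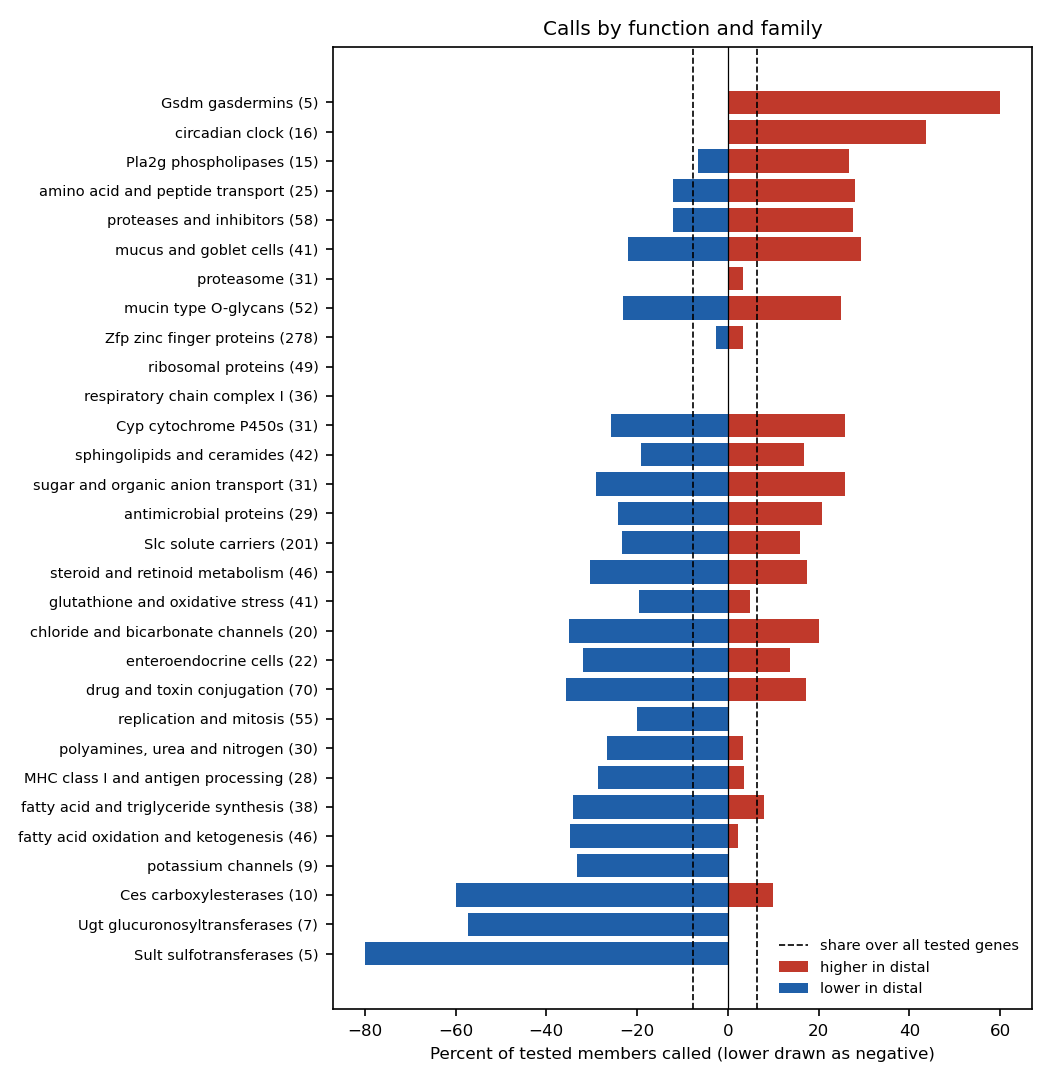
Percent of the tested members of 30 functions and families that were higher (right, positive) or lower (left, drawn as negative) in the distal colon at an adjusted p under 0.05, with the number of tested members beside each name. Dashed lines mark the shares over all tested genes, 6.47% higher and 7.64% lower.

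Genes of mucus and its glycans changed in both directions. Of 41 genes of mucus and goblet cells 12 were higher and 9 lower, and of 52 genes that build mucin-type O-glycans 13 were higher and 12 lower. In the first list, without the male distal library 1 higher and 5 lower and without the female distal library 6 higher and 6 lower were called. The secreted mucin Muc2 (-2.31) and the goblet cell factor Spdef (-1.97) fell, and the trefoil peptide Tff3 rose (1.64). The mucus-binding lectin Zg16, which aggregates Gram-positive bacteria, went from 1025 and 1803 to 3478 and 3776 FPKM (log2 difference 1.41, SE 0.24, adjusted p = 0.019), and the mucus component Fcgbp (1.10) and the processing factor Clca1 (1.39) rose. The sialyltransferase St3gal6 rose from 9.60 and 46.4 to 169 and 177 FPKM (log2 difference 2.96, SE 0.46, adjusted p = 0.015), while its relative St3gal1 fell from 6.17 and 10.998 to 0.0911 and 0.0902 FPKM (log2 difference -3.09, SE 0.63, adjusted p = 0.031). Of the fucosyltransferases, Fut4 rose (2.21) and Fut2, which makes the H antigen, fell (-0.76). B4galnt2, which makes the Sda antigen, fell from 488 and 321 to 83.6 and 62.4 FPKM (log2 difference -2.44, SE 0.11, adjusted p = 0.0012), and B4galnt3 (2.35) and B4galt1 (1.28) rose. Papss2, which makes the sulfate donor, fell (-1.49).

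The guanylin system, in which secreted peptides act on the receptor Gucy2c to raise cyclic GMP and fluid secretion, had lower levels of its ligands, its receptor and a kinase. Guanylin (Guca2a) had a log2 difference of -1.69. Uroguanylin (Guca2b) stood at 65.5 and 66.3 FPKM in the proximal and 21.7 and 24.8 FPKM in the distal libraries (log2 difference -1.47, SE 0.10, adjusted p = 0.0023), and Gucy2c at 175 and 136 FPKM proximally and 108 and 107 FPKM distally (log2 difference -0.52, SE 0.12, adjusted p = 0.049). The cyclic GMP-dependent kinase Prkg2 went from 22.7 and 18.4 to 0.0566 and 0.0224 FPKM (log2 difference -4.37, SE 0.31, adjusted p = 0.0023). No proximal library overlapped a distal one for Guca2b, Gucy2c or Prkg2.

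At cell contacts, 3 of 9 tested claudins rose and 1 fell. Cldn8, which seals the tight junction to sodium, went from 4.57 and 8.97 to 19.2 and 26.9 FPKM (log2 difference 1.67, SE 0.14, adjusted p = 0.0033), and Cldn12 (0.54) and Cldn14 (2.15) rose. Cldn15, which forms a sodium pore, fell from 153 and 152 to 46.01 and 33.6 FPKM (log2 difference -1.93, SE 0.13, adjusted p = 0.0023). The abundant Cldn7 stood at 673 and 794 FPKM proximally and 758 and 662 FPKM distally and was not called (log2 difference -0.05, SE 0.17, adjusted p = 0.9). Of the gap junction genes, Gjb5 rose (2.15) and Gjb2 fell from 10.1 and 6.75 to 3.17 and 3.20 FPKM (log2 difference -1.15, SE 0.17, adjusted p = 0.013). Of 22 brush border genes 4 fell, among them the microvillus adhesion protein Cdhr2 (-0.54), and 1 rose.

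Proteases and their inhibitors were counted with 16 higher and 7 lower of 58 and a median of 0.17; without the male distal library 3 higher and 3 lower and without the female distal library 7 higher and 5 lower were called. The aspartic protease Ctse went from 1.63 and 10.1 to 66.7 and 63.5 FPKM (log2 difference 3.61, SE 0.48, adjusted p = 0.0098), and the membrane serine protease Tmprss2 (1.40) and the calpain Capn13 (2.71) rose. The meprin subunit Mep1a (-1.14) and the serine protease Prss30 (-1.08) fell. Products better known from the exocrine pancreas were among the most abundant raised genes: syncollin (Sycn) stood at 101 and 615 FPKM in the proximal, 1059 and 2637 FPKM in the middle and 2842 and 3903 FPKM in the distal libraries (log2 difference 3.73, SE 0.48, adjusted p = 0.0091), and the trypsin inhibitor Spink1 at 14.7 and 118 FPKM proximally, 283 and 748 FPKM in the middle and 389 and 515 FPKM distally (log2 difference 3.37, SE 0.55, adjusted p = 0.017). The male proximal library was the lowest of the 6 for both genes. Among the 32 called genes of mucus, guanylin, contacts and proteases given with values, 14 calls remained without the male distal library, 22 without the female distal library and 27 to 28 without any 1 of the others; the lists counted held 44 higher and 32 lower genes in all, 10 and 13 without the male distal library and 25 and 19 without the female one.

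Defence genes changed in both directions. Antimicrobial proteins were 6 higher and 7 lower of 29; the defensin Defb37 stood at 63.7 and 21.5 FPKM in the proximal libraries, 2.50 and 0.671 FPKM in the middle and was listed at 0 in both distal ones (adjusted p = 0.0023), while the protease inhibitor Wfdc2 rose from 63.1 and 259.9 to 777 and 822 FPKM (log2 difference 2.63, SE 0.43, adjusted p = 0.018). The lipoprotein receptor Tlr2 fell from 23.9 and 14.9 to 5.22 and 4.14 FPKM (log2 difference -1.82, SE 0.18, adjusted p = 0.0048), and the flagellin receptor Tlr5 (-1.53) and the muramyl peptide sensor Nod2 (-1.01) fell. The lipopolysaccharide co-receptors Cd14 (1.19) and Ly96 (0.57), the sugar sensor kinase Alpk1 (0.84) and Tmem173 (STING, 1.47) rose. In all 4 of 27 innate receptors rose and 6 fell.

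Of 41 genes of gasdermins, caspases and the inflammasome 10 were higher and 4 lower, and of 21 chemokines and cytokines 5 were higher and 2 lower, with a median of 0.03 for the second list. Gasdermins form pores in dying cells, and 3 of 5 tested rose: Gsdmc4 went from 178 and 119 to 405 and 542 FPKM (log2 difference 1.68, SE 0.28, adjusted p = 0.018), with Gsdmc3 at 2.25 and Gsdmd at 0.62. The Gsdmc genes are near-identical copies, so reads may have been split among them. Gsdmd releases the cytokine Il18, which rose from 27.4 and 64.2 to 187 and 139 FPKM (log2 difference 1.91, SE 0.36, adjusted p = 0.025), and the interleukin-1 antagonist Il1rn rose (1.80). Among caspases, which cleave proteins in dying or inflamed cells, Casp6 (-0.87), Casp2 (-0.68) and Casp4 (-0.84) were lower. The chemokine Ccl28, which recruits IgA plasma cells, rose from 16.2 and 29.4 to 51.6 and 75.2 FPKM (log2 difference 1.47, SE 0.11, adjusted p = 0.0027), and the chemokine Ccl9 (-2.07) and the B cell factor Tnfsf13b (-1.20) fell.

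Butyrophilin-like genes, some of whose products hold intraepithelial gamma delta T cells, fell as a run of neighbours on chromosome 17 (34354822 to 34477318, mm10). Btnl1 stood at 108 and 64.1 FPKM in the proximal and 17.2 and 6.01 FPKM in the distal libraries (log2 difference -2.90, SE 0.22, adjusted p = 0.0028). Btnl2 stood at 3.75 and 4.50 FPKM proximally and 0.700 and 0.0426 FPKM distally (log2 difference -1.94, SE 0.35, adjusted p = 0.023). Btnl4 stood at 61.2 and 42.96 FPKM proximally and 36.8 and 32.7 FPKM distally (log2 difference -0.55, SE 0.12, adjusted p = 0.035). No distal library reached a proximal one for Btnl1, Btnl2 or Btnl4. With 1 uncalled gene allowed inside it, the run also held Btnl6. Of 28 genes of MHC class I and antigen processing 8 fell and 1 rose, with B2m, the shared light chain, at -0.85, H2-T23 at -0.68 and H2-Q2 at -1.94; without the male distal library 0 higher and 1 lower and without the female distal library 1 higher and 3 lower were called. H2 genes are close copies of one another and their values carry that uncertainty. Markers of T cells and intraepithelial lymphocytes moved with these genes: 5 of 17 tested were lower and none was higher, Cd8a stood at 2.24 and 1.37 FPKM proximally and 0.132 and 0.208 FPKM distally, and their summed level was 151 and 66.8 FPKM in the proximal and 19.2 and 28.1 FPKM in the distal libraries. Their part in the MHC class I differences was not tested. Of the 27 called defence genes given with values, 7 stayed called without the male distal library, 14 without the female distal library and 20 to 24 without any 1 of the others; the lists counted held 25 higher and 32 lower genes in all, 6 and 11 without the male distal library and 20 and 15 without the female one.

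Genes of enteroendocrine cells changed in both directions. Of 22 tested 3 were higher and 7 lower, with a median of -0.46. Both depended on single libraries: without the male proximal library the median was -0.01 with 3 higher and 8 lower, without the female proximal library -0.99 with 3 higher and 12 lower, without the male distal library -0.21 with 1 higher and 3 lower, and without the female distal library -0.81 with 2 higher and 6 lower. The satiety peptide Pyy stood at 31.1 and 53.1 FPKM in the proximal, 79.1 and 176 FPKM in the middle and 78.3 and 115 FPKM in the distal libraries (log2 difference 1.20, SE 0.16, adjusted p = 0.0098), and the relaxin-family peptide Insl5 at 2.84 and 14.1 FPKM proximally, 49.97 and 125 FPKM in the middle and 56.6 and 63.4 FPKM distally (log2 difference 2.998, SE 0.40, adjusted p = 0.01). For both the female middle library was the highest of the 6. Proglucagon (Gcg), made by the same L cells, fell from 69.1 and 60.2 to 19.7 and 13.8 FPKM (log2 difference -1.90, SE 0.13, adjusted p = 0.0023), and secretin (Sct) from 59.2 and 13.1 to 2.01 and 2.57 FPKM (log2 difference -3.15, SE 0.54, adjusted p = 0.02). Neurotensin (Nts) at 10.7 and 5.03 FPKM and cholecystokinin (Cck) at 3.06 and 2.06 FPKM in the proximal libraries were listed at 0 in both distal ones (adjusted p = 0.0042 and 0.0087). The fatty acid receptor Ffar4 (-0.83) and the prohormone convertase Pcsk1 (-1.84) fell, and the general marker Chga stood at 67.1 and 26.6 FPKM proximally and 11.2 and 18.6 FPKM distally (log2 difference -1.48, SE 0.47, adjusted p = 0.1). The adrenergic receptor Adra2a, which inhibits adenylate cyclase, fell from 54.1 and 32.997 to 4.59 and 1.17 FPKM (log2 difference -3.63, SE 0.23, adjusted p = 0.0023). Of the 9 called genes of hormone cells and Adra2a together, 5 were called without the male distal library, 8 without the female distal library and 9 without any 1 of the others.

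The called genes of cell division were lower and those of the clock higher. Of 55 genes of replication and mitosis 11 fell and none rose, with a median of -0.53: the replication clamp Pcna went from 93.5 and 98.9 to 63.9 and 60.8 FPKM (log2 difference -0.62, SE 0.12, adjusted p = 0.027), and Ccnd1 (-0.82) and Cdc20 (-0.76) fell. The count moved with single libraries: at an adjusted p under 0.05 it was 0 higher and 32 lower without the male proximal, 1 higher and 3 lower without the female proximal, 0 higher and 0 lower without the male distal and 0 higher and 1 lower without the female distal library. At an unadjusted p under 0.05, 34 were lower and 0 higher by limma with all libraries. Of 16 clock genes 7 rose and none fell, with a median of 0.39. The activator Arntl stood at 2.12 and 2.85 FPKM in the proximal and 7.09 and 5.36 FPKM in the distal libraries (log2 difference 1.05, SE 0.21, adjusted p = 0.03), and its repressors Nr1d1 (0.54), Per1 (0.53) and Bhlhe40 (1.08) rose as well. At an unadjusted p under 0.05, 8 clock genes were higher and 1 lower, and at an adjusted p under 0.05 without the male distal library 0 higher and 0 lower. The hour of collection is not given in the sources used here. Immediate early and stress genes, which respond within minutes to a stimulus, were 6 higher and 8 lower of 35, with Junb at 0.61 and Egr2 at -1.31, and the heat shock genes Hspa1a (-1.12) and Hspa1b (-0.99) fell. Their part in the other differences was not tested. Of 11 called division, clock and stress genes, 0 passed without the male distal library, 1 without the female distal library and 6 to 9 without any 1 of the others; the lists counted held 13 higher and 19 lower genes in all, 1 and 1 without the male distal library and 5 and 1 without the female one.

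Among the machinery that all cells share few genes were called. None of 49 ribosomal protein genes in the list was called by limma, although 2 reached an unadjusted p under 0.05. The list median was 0.28, and 48 of the 49 had a log2 difference above 0. Taken by sex, the median was 0.35 for the male pair of libraries and 0.23 for the female pair. In the wider family of Rpl and Rps symbols 1 of 78 tested genes was called, Rpl9, which was higher. Of these 78, 77 had a log2 difference above 0. This shared direction was not tested. Of 31 proteasome genes 1 rose (Psma1, 0.49), of 36 genes of ribosome assembly 1 rose (Tsr1, 0.58), and of 79 ubiquitin enzymes 2 rose and 3 fell. These shares lay below the background of 6.47% and 7.64%. Of the 2 genes given with values here, 0 passed without the male distal library, 0 without the female distal library, 0 to 1 without any 1 of the others.

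Raised and lowered genes also lay side by side on the chromosomes. In the order of the tested genes there were 31 runs of 3 or more neighbours called in the same direction, 11 higher and 20 lower. With 1 uncalled gene allowed inside a run there were 70. Over all tested genes 6.47% were called higher and 7.64% lower. How many runs those shares alone would give was not worked out, so the counts describe positions only. Some runs held duplicated genes, such as the HOX, cytochrome P450 and butyrophilin-like runs. Related genes of a shared function also lay within runs. Dgat2 and Mogat2, which make triglyceride from monoglyceride, were lower together on chromosome 7 (99153658 to 99461877), with log2 differences of -0.94 and -2.21. Acot1 (-1.37) and Acot4 (-0.96), which cleave acyl-CoA, were lower on chromosome 12 (84009490 to 84218881), and Rdh9 and Rdh16 were higher on chromosome 10 (127776386 to 127846565). A run on chromosome 7 (28437447 to 28547254) joined Sycn with Gmfg (0.85) and Nccrp1 (1.69), which have unrelated functions. Acot and Rdh genes are close copies within their clusters, so their single values are less certain than their shared direction. Of 6 called neighbours given with values, 1 was called without the male distal library, 3 without the female distal library and 5 without any 1 of the others.

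Summed levels show the weight of a function in a library, which counts of genes do not. Genes of drug and toxin conjugation summed to 9438 and 6173 FPKM proximally and 4494 and 4252 FPKM distally, and without Cyp2c55 to 6792 and 5004 FPKM proximally and 4091 and 4154 FPKM distally. Amino acid and peptide carriers were higher in sum, with 629 and 805 FPKM proximally and 976 and 1173 FPKM distally, and without Slc6a14 466 and 541 FPKM proximally and 648 and 701 FPKM distally. Mucus and goblet cell genes summed to 13301 and 15297 FPKM proximally and 13969 and 13449 FPKM distally, and to 8296 and 9048 FPKM proximally and 11357 and 12301 FPKM distally without guanylin (Guca2a), so the sum was higher distally in both sexes only without that gene. Complex I genes summed to 7761 and 7669 FPKM proximally and 7469 and 7901 FPKM distally. These sums carry no test.

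**Figure D5:**
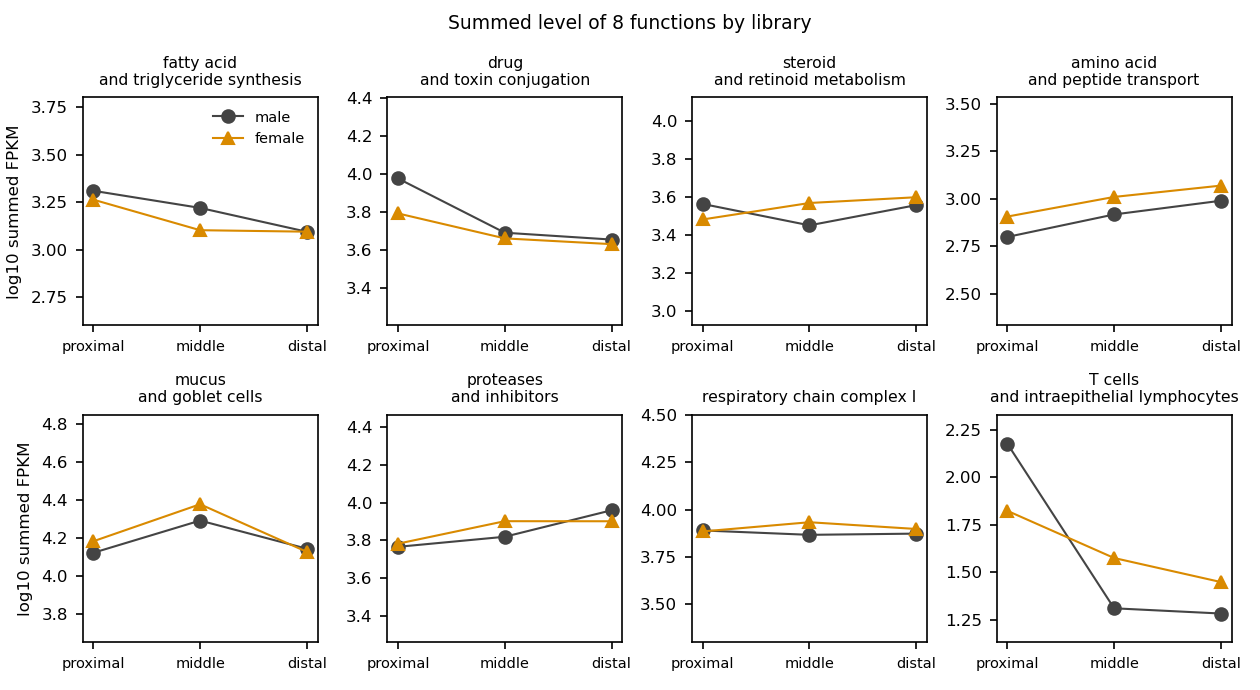
Summed FPKM of 8 functions in each of the 6 libraries, on a log10 axis, in the order proximal, middle and distal, with male (circles) and female (triangles) libraries joined by lines. Drug conjugation and T cell genes have lower sums in the distal than in the proximal library of both sexes.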

How the data were processed

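RNA was measured in epithelial cells of 3 colon regions (proximal, middle, distal), with 1 male and 1 female library each, from wild-type C57BL/6J mice without treatment. Per the labels' protocols, RNA was extracted with a miRNeasy Micro Kit and libraries were made with the TruSeq stranded mRNA kit. The authors deposited FPKM values per gene symbol for 24346 symbols, 1 table per library. The submitters' processing notes name TopHat2 2.1.1, Bowtie2 2.2.8, SAMtools 0.1.18, Cuffdiff 2.2.1 and build mm10, without their settings. FPKM are not counts, so no count test was run. From the step between low values of long genes an estimated 7840000 to 9950000 fragments per library were assigned to genes, with 72.4% or more of low values within 0.1 of a whole fragment; this is an estimate, and it limits genes near 1 FPKM most. Samples were grouped by the tissue label and paired by sex.

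Values were analysed as log2(FPKM + 1) for the 11815 genes with at least 1 FPKM in 2 or more of the 6 libraries. limma 3.58.1 in R 4.3.3 was fitted with a variance trend to all 6 libraries, with region and sex as terms (2 residual and 3.49 prior degrees of freedom), and p-values were adjusted by Benjamini-Hochberg over all 11815 genes with a threshold of 0.05. Region deviations between the sexes were correlated across genes at 0.179 (proximal and middle), 0.129 (proximal and distal) and 0.352 (middle and distal), so libraries of a sex deviated together and sex was kept as the block. On simulated data with 200 changed genes, 82.8% of changes of 1 on the log2 scale and 99.3% of changes of 2 were recovered, and 10.1% of the calls were unchanged genes.

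The comparison, the 73 gene lists and 72 symbol families were chosen with earlier results of these data known, so they describe and do not test. Named genes were taken by rule: the 40 largest changes in each direction among called genes with a mean of at least 5 FPKM, up to 8 called members of each list in each direction with a mean of at least 2 FPKM, up to 3 abundant uncalled members, family members called in opposite directions, members of runs of neighbours, and the 20 largest gains and losses in share of FPKM. Genes described only as part of a set may be left out, and some named by the rule are not reported here. Psma1, Tsr1, Nod2 and Cd8a were named to explain a small count or a marker list. Further genes were added after their values were seen, to show members on both sides of a count. These were Ppard, Nr1h4, Slc52a2, Trpm4, Trpm5, Elovl7, Cyp2c68, Rdh1, Aldh1a3, Muc2, Spdef, Tff3, Guca2a, Ccl9, Tnfsf13b and Gsn. Slc52a3, Asl, Pdk1 and Pdk4 were added for the same reason, by direction only. Promoters came from RefSeq (GRCm38.p6), matched by symbol for 9033 tested genes, of which 7214 had exactly 1. Gene positions came from GENCODE M21 (11351 of 11815 symbols matched). Python 3.11.15 and matplotlib were used for tables and figures. Alternatives tried were a smaller pseudocount (0.1), dropping the filter, raising it to 5 FPKM, scaling by quantiles or median ratios, no variance trend, no sex block, fitting 4 libraries, and leaving out each library.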

Additional observations from a re-analysis of the deposited data

Results flagged for a closer look

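Aqp4, the basolateral water channel, was singled out because its difference pointed in opposite directions in the sexes: distal minus proximal, the male libraries gave a log2 difference of 2.75 and the female ones of -1.07. That difference between the sexes was not tested, since each sex has 1 library per region. It was 1 of 9 tested genes whose log2 differences were 1 or more in size and opposite in the sexes, and it is given because the water channels are described above. Over the 4 tested aquaporins, of which Aqp4 is 1, the male libraries had a median of 0.78 and the female ones of -0.70, and that difference was not tested either. No check for a single deviating library was made, since each region has 2 libraries.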

How the results depend on the processing

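The count of called genes stayed within 1.5 times of the 1668 reported with a pseudocount of 0.1, a minimum of 5 FPKM, quantile or median-ratio scaling, no variance trend and the 4 libraries alone (1331 to 1655). Without a filter on low values 1193 genes were called, of which 508 were higher, since 17094 genes then shared the adjustment. Without the replicate block, that is with the pairing by sex dropped, 1240 genes were called (584 higher, 656 lower), and 1231 of them were among the 1668. Leaving out 1 library gave 340 to 1583 calls, 130 to 771 higher and 210 to 870 lower; the lowest counts were those without the male distal library, where the lone distal library is assumed to vary like the other groups, and the next those without the female distal library (770 calls). Of the 215 called genes given with values, 84 kept their call without the male and 137 without the female distal library, and 162 without the filter. None of the called genes given with values changed direction under any of the alternatives run. Leaving out a proximal library makes the same assumption about the lone proximal one, so that assumption does not set the distal libraries apart. Some uncalled genes given with values changed sign. With quantile scaling Epcam had a log2 difference of -0.12. The log2 difference of Epcam ranged from -0.066 to 0.22, that of Krt8 from -0.042 to 0.27, that of Cldn7 from -0.26 to 0.17 and that of Aqp4 from -0.94 to 2.61 with 1 library left out, and Aqp4 was below 0 without the male proximal and without the male distal library. With 2 libraries per region, small changes and genes near 1 FPKM cannot be resolved at this depth.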
